A study of Mus musculus with 7 samples.

Results

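The SLC25 family of mitochondrial solute carriers was examined in the tibialis anterior (TA) of miR-486 KO and WT mice, a muscle at the front of the shin made up mainly of fast fibres. Members were all genes of the count table whose mouse symbol is Slc25a followed by a number, together with Ucp2, an uncoupling protein of the same family, and without pseudogene symbols ending in -ps. This gave 48 members among 48795 genes, of which 41 had enough reads to be tested. The WT group held 3 libraries and the KO group 4, all from TA of 6-month-old male mice. By the labels the WT mice were wildtype C57BL/6 and the KO mice miR-486-/- on FVB N/J, whereas FVB appears in the WT column names and, by the study's methods, all mice shared 1 background after backcrossing, so that strain and genotype cannot be told apart here. The KO is a germline deletion of the miR-486 hairpin in an intron of Ank1, present in every cell of the animal. The study's methods call the replicates biological, while the labels do not say which mouse a library came from, and p-values reflect the scatter between libraries.

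SLC25 proteins sit mostly in the inner mitochondrial membrane and exchange metabolites between cytosol and matrix, such as ADP for ATP, phosphate, aspartate for glutamate, acylcarnitine for carnitine, and cofactors. Muscle relies on them to export ATP to the contractile apparatus, to import fuel and to pass reducing equivalents into the matrix. Several members carry a calcium-binding domain facing the intermembrane space, which ties transport to cytosolic calcium.

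Gene counts per library were between 23839577 and 28168275, and levels are given as CPM, the counts scaled by TMM to a common library size. Tests are edgeR quasi-likelihood tests with Benjamini-Hochberg adjustment over the 14002 genes tested and a threshold of 0.05, SE is the standard error of the log2 fold change, and fold changes are KO relative to WT. Ank1, the host gene, was at 264 to 299 CPM in WT and 244 to 273 CPM in KO. Its groups overlapped, with a log2 fold change of -0.10 (edgeR adjusted p 0.637). The row of the hairpin itself had 1, 1 and 0 counts in the WT libraries and 0 throughout the KO group, so neither row tests the genotype labels. The myofibre markers Ckm, Acta1, Myh4, Myh2, Myh1 and Pvalb summed to between 106683 and 122372 CPM in WT and between 90786 and 111629 CPM in KO. Endothelial markers (Cdh5, Kdr, Pecam1) summed to 205 to 269 CPM in WT and 163 to 187 CPM in KO, and liver transcripts (Alb, Apoa1) to 1.65 to 32.0 CPM against 0.0374 to 1.32 CPM. Kdr and Alb fell in KO (edgeR adjusted p 0.0263 and 0.0465). With all libraries Cdh5, with KO below WT, and Pecam1, whose groups overlapped, did not pass (edgeR adjusted p 0.243 and 0.440). Without WT 3 their adjusted p values in edgeR were 0.0441 and 0.0791. The part of endothelial cells or liver transcripts in the results was not tested. WT 3 stood apart. Its log2 abundance correlated with the other libraries at 0.944 to 0.958, against up to 0.996 among the others, and mitochondrially encoded transcripts took 22.4% of its gene counts, against 13.0% to 17.9% elsewhere. WT 3 was the highest or the lowest of all 7 libraries in 33 of the 41 tested members, and in 70.7% of all tested genes. Values without WT 3 are therefore given beside those that it moved most.

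In KO muscle 3 carriers rose with all 7 libraries. They were Slc25a22, a mitochondrial glutamate carrier, Slc25a34, a family member whose substrate is not settled, and Slc25a42, a carrier of coenzyme A and adenine nucleotides. No member fell (0 in edgeR). At an unadjusted p under 0.05 in edgeR there were 14 of the 41 members, of either direction, and 2835 of all 14002 tested genes. Of all tested genes 2.81% passed the threshold, 0.964% as rises and 1.85% as falls, and of the 41 members 3 passed. The median log2 fold change was 0.05 over the 41 members and -0.02 over all tested genes. Without WT 3 the rises were 8 and the falls again 0, including the same 3, where 12.7% of all tested genes passed, 6.15% as rises and 6.55% as falls. The 5 added without WT 3 were Slc25a25, Slc25a28, Slc25a20, Slc25a5 and Ucp2. The 3 calls were lost in most fits with fewer libraries. None of the members passed without WT 2 or without any 1 KO library (0 in each of these fits). Few genes of any kind passed there. They were 139 of 14253 tested genes without WT 2, and 48 of 13884, 44 of 13914, 20 of 13870 and 21 of 13897 without KO 1 to KO 4. Without WT 1, where 289 of 14216 genes passed, 2 members did, and Slc25a22 had an adjusted p of 0.0634 by edgeR. With DESeq2, the tool of the study, 5 members passed, all higher in KO, where 6.53% of genes with an adjusted p passed. Without WT 3 it called 8, where 10.9% passed.

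In 15 of the 41 tested members the ranges of the 2 groups were separate. KO was above WT in 11 of them, where 11.0% of all tested genes had this pattern, and below WT in 4, where 11.4% did. The 11 were Slc25a25, Slc25a13, Slc25a22, Slc25a38, Slc25a20, Slc25a42, Slc25a26, Slc25a33, Slc25a28, Slc25a37 and Slc25a34, and the 4 were Slc25a23, Slc25a10, Slc25a39 and Slc25a53. The highest of the 4 KO libraries was KO 1 in 23 of the 41 members (56.1%), against 33.8% of all tested genes, and KO 1 had the largest share of mitochondrially encoded counts in its group, at 17.9% against 15.8% to 17.2% in KO 2 to KO 4. The part of either in the results was not tested.

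**Figure D1:**
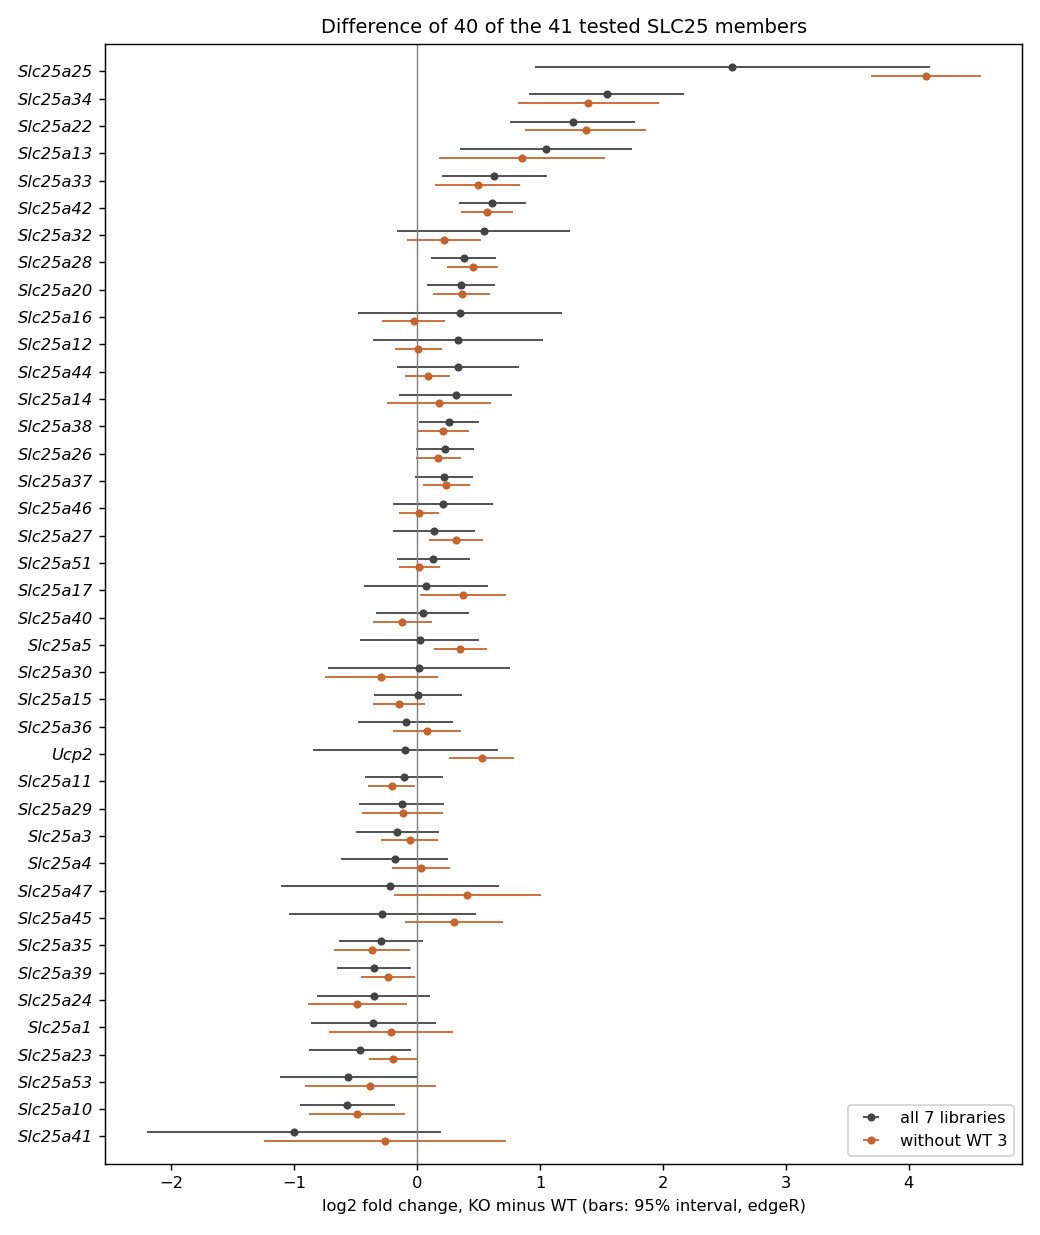
Log2 fold change (KO minus WT, horizontal axis) of 40 of the 41 tested SLC25 members with 95% intervals from edgeR, for all 7 libraries (dark) and without WT 3 (orange), ordered by the value with all libraries. Slc25a25 lies farthest to the right at 2.57 with all libraries and 4.14 without WT 3, and Slc25a41 farthest to the left at -1.0, with an interval that reaches past 0.

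Levels per kb of exon spanned several orders of magnitude. Slc25a4, the muscle isoform of the ADP/ATP exchanger, led at a mean of 2039 CPM per kb over the 7 libraries and took 57.4% to 70.2% of all SLC25 counts in a library. Slc25a3, the phosphate carrier, was at 194 CPM per kb and Slc25a11, the oxoglutarate/malate carrier, at 192 CPM per kb, and their order changed between libraries. Slc25a12, the calcium-regulated aspartate/glutamate carrier of muscle and brain, was at 85.1 CPM per kb. Slc25a25 was the next by this mean, at 33.9 CPM per kb, but its place differed between the groups. By level per kb it ranked 23 among the 48 members in WT 1 and WT 2, 6 in WT 3, and 5 in each KO library. In each WT library it lay below Slc25a5, the ADP/ATP exchanger of proliferating cells, and in each KO library above it.

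**Figure D2:**
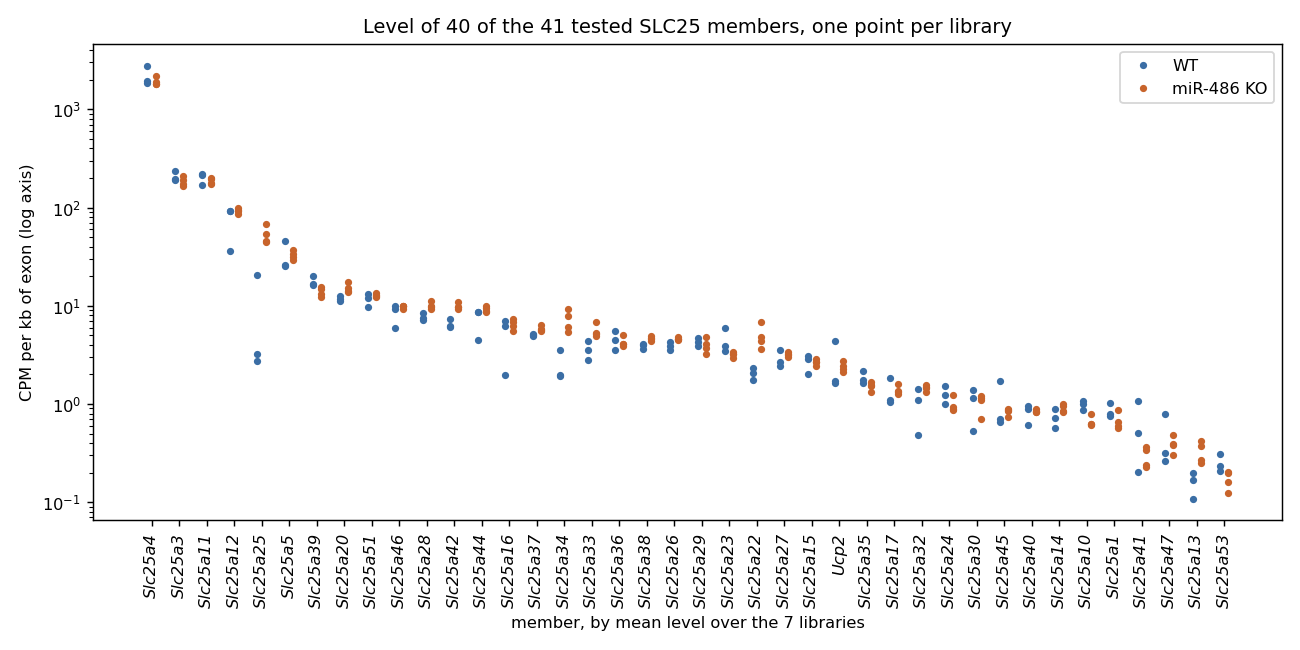
CPM per kb of exon on a log axis for 40 of the 41 tested members, 1 point per library (blue, WT; orange, KO), ordered by the mean over the 7 libraries. Slc25a4 stands far above the rest at 2039, and Slc25a25 has the widest gap between its WT and KO points.

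The ADP/ATP and phosphate carriers supply the substrates of ATP synthase. None of the 3 tested members of this group passed with all libraries (0 in edgeR and DESeq2, and 0 at an unadjusted p under 0.05). Of all tested genes 2.81% passed in edgeR. Slc25a4 was at 4311, 4579 and 6550 CPM in WT 1 to WT 3 and at 5138, 4230, 4500 and 4270 CPM in KO 1 to KO 4. The groups overlapped, with WT 3 the highest of the 7. Its log2 fold change was -0.18 (SE 0.19, 95% interval -0.62 to 0.25), and 0.03 without WT 3. Slc25a3 was at 1061, 1083 and 1298 CPM in WT and at 1171, 924, 1049 and 963 CPM in KO, with a log2 fold change of -0.16 (SE 0.15, 95% interval -0.50 to 0.18), and -0.06 without WT 3. Slc25a5 was at 41.8, 42.8 and 74.5 CPM in WT and at 60.6, 47.7, 55.1 and 51.6 CPM in KO. With all libraries its log2 fold change was 0.02 (SE 0.21), while without WT 3 every KO library lay above both WT libraries and it rose by 0.35 on the log2 scale (SE 0.10, adjusted p 0.0420 by edgeR). Within the pair Slc25a4 made up 98.3% to 98.7% of the summed level per kb in every library. Slc25a31, the testis form, had at most 1 count in any library.

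The ATP-Mg/phosphate carriers move adenine nucleotides in and out of the matrix against phosphate, which sets the size of the matrix nucleotide pool, and all but Slc25a41 respond to calcium. The widest difference of the family was seen here. Slc25a25 (chromosome 2, 32414487 to 32451445, minus strand) had 751, 571 and 3954 counts in WT 1 to WT 3 and 14124, 8776, 9558 and 10164 counts in KO 1 to KO 4. These were 25.6, 21.4 and 163 CPM in WT and 531, 349, 357 and 418 CPM in KO. Every KO library lay above every WT library, and WT 3 lay well above WT 1 and WT 2. The WT mean of 69.9 ± 80.4 CPM (SD, n = 3) compared with a KO mean of 414 ± 84.0 CPM (SD, n = 4), which is 5.92 times as high. The log2 fold change of 2.57 (SE 0.70, 95% interval 0.96 to 4.17) did not pass the threshold with all libraries (edgeR adjusted p 0.0945). It passed in DESeq2 (adjusted p 0.0234), in edgeR with no filter on low counts (0.0250) and in edgeR without WT 3 (4.11e-06). It did not pass in voom (adjusted p 0.0559), or in edgeR with RLE (0.0908) or upper-quartile scaling (0.108) or a replicate block (0.253). Nor did it pass in edgeR without mitochondrially encoded genes (adjusted p 0.0940) or without any single library other than WT 3 (0.143 to 0.204). Without WT 3 the log2 fold change was 4.14 (SE 0.20) and the KO mean was 17.6 times that of WT 1 and WT 2. Naif1 overlaps 989 bases of Slc25a25 on the opposite strand, and since the strand setting of the counts is not given, reads of that stretch cannot be assigned with certainty.

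The other ATP-Mg/phosphate carriers did not share this pattern. Slc25a23 was at 18.3, 20.4 and 31.1 CPM in WT and at 15.7, 17.8, 17.1 and 17.0 CPM in KO. Every KO library lay below every WT library, but the log2 fold change of -0.46 (SE 0.18) did not pass (edgeR adjusted p 0.205). WT 3 was the highest library, and without it the log2 fold change was -0.19. Slc25a24 had a log2 fold change of -0.35 (SE 0.20), and Slc25a41, with 8 to 35 counts a library, one of -1.0 (SE 0.52, 95% interval -2.19 to 0.20) that was -0.26 without WT 3. Within these 4 carriers Slc25a25 made up 39.9%, 31.6% and 72.2% of the summed level per kb in WT 1 to WT 3 and 90.4% to 94.2% in the KO libraries. The summed level of the 4 was 8.16, 8.62 and 28.7 CPM per kb in WT 1 to WT 3 and 48.8 to 71.7 CPM per kb in KO. The grouping of carriers into such sets was chosen after values were seen and is given without a test.

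**Figure D3:**
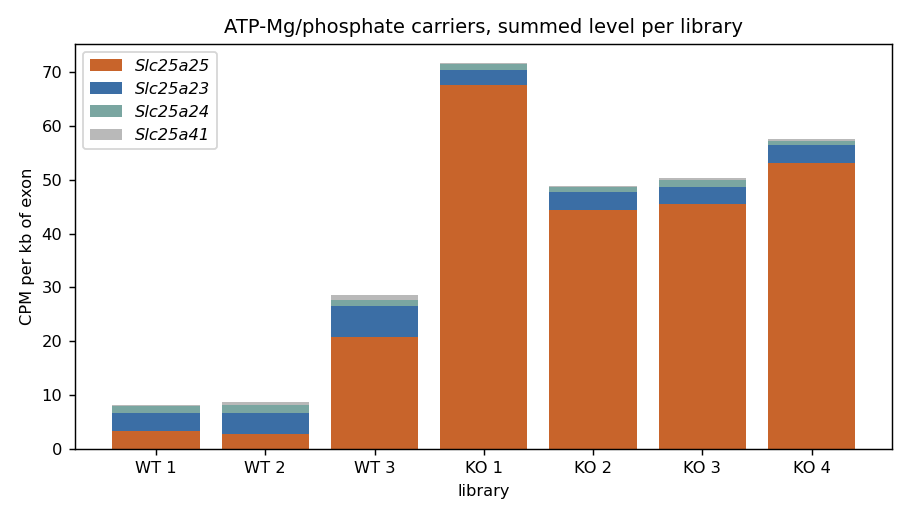
Stacked CPM per kb of exon of the 4 ATP-Mg/phosphate carriers in each library (vertical axis, linear from 0). The Slc25a25 segment fills 90.4% or more of each KO bar, while the summed bars of WT 1 and WT 2 stay at 8.16 and 8.62 CPM per kb and WT 3 lies between the groups at 28.7.

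Promoters are shown for Slc25a25, whose 3 annotated starts the gene counts cannot tell apart, and then for the 3 carriers that rose with all libraries, with every start the table gives. The sequences are from RefSeq (GRCm38.p6) and run from 250 bases before to 50 bases after a start. Of the 48 members 37 had a promoter in that table. Motifs were searched on both strands, and matches are in capitals. They were TGACGTCA (the cyclic AMP response element, CRE), ACANNNTGT (core of the glucocorticoid receptor element), GTAAACA (FoxO), CACGTG (E-box), AAGGTCA (element of oestrogen-related receptors), GCATGCGC (core of the NRF1 site) and CCAAT (the CCAAT box, which reads ATTGG on the other strand).
Slc25a25 start 1, chr2:32451421-32451720, minus strand: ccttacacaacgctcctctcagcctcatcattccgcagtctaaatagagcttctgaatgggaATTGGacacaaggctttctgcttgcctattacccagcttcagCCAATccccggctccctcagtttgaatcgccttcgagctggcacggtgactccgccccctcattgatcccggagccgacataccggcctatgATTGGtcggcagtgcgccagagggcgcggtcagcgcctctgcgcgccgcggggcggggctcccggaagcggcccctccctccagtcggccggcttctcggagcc
Slc25a25 start 2, chr2:32431102-32431401, minus strand: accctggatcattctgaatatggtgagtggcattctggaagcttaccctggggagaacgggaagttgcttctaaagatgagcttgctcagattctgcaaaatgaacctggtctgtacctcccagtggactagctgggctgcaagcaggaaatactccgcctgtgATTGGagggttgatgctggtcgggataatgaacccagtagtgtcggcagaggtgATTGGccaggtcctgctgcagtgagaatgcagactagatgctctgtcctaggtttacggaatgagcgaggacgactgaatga
Slc25a25 start 3, chr2:32424017-32424316, minus strand: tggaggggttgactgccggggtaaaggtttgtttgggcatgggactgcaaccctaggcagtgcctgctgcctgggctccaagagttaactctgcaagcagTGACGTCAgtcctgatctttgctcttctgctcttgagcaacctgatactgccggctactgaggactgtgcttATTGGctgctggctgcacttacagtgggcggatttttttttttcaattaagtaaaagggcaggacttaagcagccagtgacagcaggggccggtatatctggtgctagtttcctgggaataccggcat
Slc25a22 start 1, chr7:141437825-141438124, minus strand: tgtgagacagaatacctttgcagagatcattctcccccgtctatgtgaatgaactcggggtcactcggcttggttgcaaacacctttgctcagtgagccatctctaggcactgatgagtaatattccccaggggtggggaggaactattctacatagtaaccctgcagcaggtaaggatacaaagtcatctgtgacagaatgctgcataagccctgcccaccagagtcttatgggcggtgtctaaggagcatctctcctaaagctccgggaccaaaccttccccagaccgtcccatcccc
Slc25a22 start 2, chr7:141435326-141435625, minus strand: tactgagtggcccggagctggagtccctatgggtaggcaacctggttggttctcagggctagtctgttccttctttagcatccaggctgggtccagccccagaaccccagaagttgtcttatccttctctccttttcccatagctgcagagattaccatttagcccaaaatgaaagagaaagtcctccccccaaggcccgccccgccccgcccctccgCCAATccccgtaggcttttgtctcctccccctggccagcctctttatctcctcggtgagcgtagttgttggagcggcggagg
Slc25a22 start 3, chr7:141434545-141434844, minus strand: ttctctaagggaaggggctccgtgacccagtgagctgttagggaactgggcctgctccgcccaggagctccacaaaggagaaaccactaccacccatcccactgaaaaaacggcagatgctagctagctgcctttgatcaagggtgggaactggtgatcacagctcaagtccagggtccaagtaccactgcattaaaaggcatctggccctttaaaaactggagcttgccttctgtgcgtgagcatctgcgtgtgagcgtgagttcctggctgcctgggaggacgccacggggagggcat
Slc25a34, chr4:141623785-141624084, minus strand: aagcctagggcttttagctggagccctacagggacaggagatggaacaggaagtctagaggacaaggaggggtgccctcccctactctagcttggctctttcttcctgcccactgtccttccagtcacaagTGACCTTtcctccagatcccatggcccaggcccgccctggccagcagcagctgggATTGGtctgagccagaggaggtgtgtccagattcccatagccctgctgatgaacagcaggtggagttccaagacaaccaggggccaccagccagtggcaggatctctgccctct
Slc25a42, chr8:70212232-70212531, minus strand: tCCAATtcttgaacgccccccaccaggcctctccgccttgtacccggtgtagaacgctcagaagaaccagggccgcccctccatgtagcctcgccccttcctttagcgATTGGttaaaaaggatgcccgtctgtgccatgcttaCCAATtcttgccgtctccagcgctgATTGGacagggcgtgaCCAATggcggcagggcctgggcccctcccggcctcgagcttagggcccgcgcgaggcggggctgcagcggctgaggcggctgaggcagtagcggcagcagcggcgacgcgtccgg

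The third start of Slc25a25 held the CRE letters from 150 bases before the start, a match found in 1.79% of all 32851 promoters of this length and, among the members, also in Slc25a36. The Slc25a34 promoter held the AAGGTCA letters on the opposite strand from 119 bases before the start, found in 4.72% of all promoters and in no other member promoter. The CCAAT box was in 6 of the 8 windows shown, in 37.4% of all promoters and in 22 of the 47 windows of members. It lay 5 times in the Slc25a42 window and 3 times in that of the first Slc25a25 start. The GTAAACA letters were in 0 of the 47 windows of members and in 3.65% of all promoters. None of the printed windows held the CACGTG, GCATGCGC or ACANNNTGT letters, which were in 7.15%, 2.71% and 6.85% of all promoters. Among the 47 windows of members they were in 8 (17.0%), 2 (4.26%) and 4 (8.51%). These matches describe the windows and were not tested against the counts.

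Uncoupling proteins can let protons back into the matrix. Ucp2 is the family member of leukocytes and many other tissues. Among Ucp2 and its relatives Slc25a14, Slc25a27 and Slc25a30, Ucp2 alone passed in edgeR, and only without WT 3. Ucp3, given with the partner genes below, also passed in edgeR without WT 3 (adjusted p 0.0228). Ucp2 was at 12.0, 11.4 and 30.5 CPM in WT 1 to WT 3 and at 17.2, 14.8, 19.3 and 15.9 CPM in KO 1 to KO 4. WT 3 was the highest library and WT 1 and WT 2 the lowest. With all libraries the log2 fold change was -0.09 (SE 0.33, adjusted p 0.886 by edgeR), and without WT 3 it was 0.52 (SE 0.12, adjusted p 0.0177 by edgeR). The macrophage markers Adgre1, Cd68, Csf1r and Lyz2 summed to 34.8, 34.4 and 78.2 CPM in WT 1 to WT 3 and to between 27.5 and 46.6 CPM in KO. They did not move together in WT 3. Cd68 was at 22.8 CPM there, against 2.46 and 2.82 CPM in WT 1 and WT 2, and Csf1r and Lyz2 were also higher. Adgre1 was lower, at 0.411 against 1.06 and 0.939 CPM. None of the 4 separated the groups, and their part in the Ucp2 levels was not tested. In such bulk samples a change in the number of cells of a type and one in RNA per cell cannot be told apart. Dnajb13 overlaps Ucp2 by 305 bases on the opposite strand. The relatives Slc25a14, Slc25a27 and Slc25a30 had log2 fold changes of 0.31, 0.14 and 0.01 with all libraries. Without WT 3 these were 0.18, 0.32 and -0.29, none of which passed.

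Among the amino acid carriers 1 of 7 tested members rose. Slc25a22 (chromosome 7, 141429744 to 141437892, minus strand), which imports glutamate with a proton, was at 12.3, 10.5 and 13.9 CPM in WT 1 to WT 3 and at 41.3, 21.9, 26.0 and 28.7 CPM in KO 1 to KO 4. The groups did not overlap, and KO 1 was the highest. The WT mean of 12.2 ± 1.68 CPM (SD, n = 3) stood against a KO mean of 29.5 ± 8.35 CPM (SD, n = 4), and the log2 fold change was 1.27 (SE 0.22, 95% interval 0.76 to 1.78, edgeR adjusted p 0.0278). Without WT 3 it was 1.37 (edgeR adjusted p 0.00368). Its call was lost without WT 1, WT 2 or any 1 KO library, with adjusted p values of 0.0571 to 0.0901 and log2 fold changes of 1.06 to 1.39. The other glutamate carrier, Slc25a18, had at most 6 counts in a library and was not tested.

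The aspartate/glutamate carriers feed the malate-aspartate shuttle. Slc25a12 was at 683, 683 and 264 CPM in WT 1 to WT 3 and at 637, 693, 733 and 680 CPM in KO. WT 3 alone was low, and the log2 fold change of 0.34 (SE 0.30) became 0.01 (95% interval -0.18 to 0.20) without it. Slc25a13, the form known from liver, was scarce, at 0.751, 0.638 and 0.411 CPM in WT and at 1.43, 0.954, 1.61 and 1.03 CPM in KO. Its groups did not overlap, but the log2 fold change of 1.05 (SE 0.31) did not pass (edgeR adjusted p 0.109). Slc25a38, the glycine carrier that supplies haem synthesis, and Slc25a44, a carrier of branched chain amino acids, had log2 fold changes of 0.26 (SE 0.11) and 0.33 (SE 0.22). Slc25a44 was low in WT 3 alone, at 16.2 CPM against 30.9 and 31.2 CPM in WT 1 and WT 2, and its log2 fold change without WT 3 was 0.09. Slc25a15, the ornithine carrier, and Slc25a29, a carrier of basic amino acids, were at 0.01 and -0.13, and at -0.15 and -0.12 without WT 3. Slc25a2, another ornithine carrier, had 3 to 10 counts a library and was not tested.

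The 3 tested carboxylate carriers had log2 fold changes below 0, and none passed (0 in edgeR, 1 at an unadjusted p under 0.05, 0 in DESeq2). Over all tested genes 2.81% passed in edgeR. Slc25a10, the dicarboxylate carrier, was at 3.00, 3.42 and 3.74 CPM in WT and at 2.71, 2.15, 2.17 and 2.10 CPM in KO. The groups did not overlap, and its log2 fold change was -0.57 (SE 0.17, adjusted p 0.117 by edgeR). The abundant Slc25a11 was at 452, 461 and 360 CPM in WT and at 422, 366, 417 and 373 CPM in KO, a log2 fold change of -0.11 (SE 0.14, 95% interval -0.43 to 0.21), and -0.21 without WT 3. Slc25a1, the citrate carrier that feeds cytosolic lipid synthesis, averaged 1.86 ± 0.315 CPM over the WT libraries (SD, n = 3) against 1.45 ± 0.290 CPM over those of KO (SD, n = 4), with a log2 fold change of -0.36, and -0.21 without WT 3. Slc25a21, the oxodicarboxylate carrier, had 1 count in 1 KO library.

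Slc25a20, the carnitine/acylcarnitine carrier of the carnitine shuttle for long chain fatty acids, was at 60.2, 54.2 and 56.9 CPM in WT 1 to WT 3 and at 84.3, 68.5, 74.1 and 66.3 CPM in KO 1 to KO 4. All KO libraries lay above all WT libraries. Its log2 fold change was 0.36 both with all libraries (SE 0.12, adjusted p 0.152 by edgeR) and without WT 3 (SE 0.10, adjusted p 0.0477 by edgeR).

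Of 11 carriers of cofactors and nucleotides, all tested, 1 rose. Slc25a42 (chromosome 8, 70184340 to 70212305, minus strand) was at 43.7, 37.0 and 36.1 CPM in WT 1 to WT 3 and at 65.4, 58.6, 58.1 and 56.2 CPM in KO 1 to KO 4. The groups stood well apart, with the lowest KO library at 56.2 and the highest WT library at 43.7 CPM. The means of 38.9 ± 4.15 CPM (SD, n = 3) and 59.6 ± 4.05 CPM (SD, n = 4) gave a log2 fold change of 0.61 (SE 0.12, 95% interval 0.34 to 0.88, edgeR adjusted p 0.0356). Without WT 3 it was 0.57 (edgeR adjusted p 0.00434). Without WT 2 or any 1 KO library the call was lost, with adjusted p values of 0.10 to 0.117. Slc25a16, a carrier also linked to coenzyme A, was at 29.9, 33.7 and 9.55 CPM in WT and at 26.5 to 35.4 CPM in KO. Again WT 3 alone was low, and the log2 fold change was 0.35 with it and -0.03 without it.

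Slc25a33, a carrier of pyrimidine nucleotides, was at 6.72, 8.22 and 5.31 CPM in WT and at 13.0, 9.85, 9.75 and 9.25 CPM in KO. The groups did not overlap, and the log2 fold change of 0.63 (SE 0.19) did not pass (edgeR adjusted p 0.117, and 0.0669 without WT 3). Its paralogue Slc25a36 was at -0.09 (SE 0.17), and at 0.08 without WT 3. Slc25a39, which carries glutathione, was below WT in every KO library, at a log2 fold change of -0.35 (SE 0.13, adjusted p 0.193 by edgeR), while the related Slc25a40 was at 0.05, and at -0.12 without WT 3. Slc25a26, the carrier of S-adenosylmethionine, lay above WT in every KO library at a log2 fold change of 0.23 (SE 0.10, adjusted p 0.261 by edgeR). Slc25a51, the NAD carrier, Slc25a32, a carrier of folate and FAD, and the peroxisomal Slc25a17 overlapped between groups, with log2 fold changes of 0.13, 0.54 and 0.07. Without WT 3 these were 0.02, 0.22 and 0.37, none of which passed.

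The mitoferrins import iron for haem and iron-sulphur clusters. Slc25a28, the form found in most tissues, was at 28.5, 26.8 and 31.7 CPM in WT 1 to WT 3 and at 42.2, 35.0, 37.6 and 36.1 CPM in KO 1 to KO 4. The groups did not overlap, and its log2 fold change was 0.38 (SE 0.12, adjusted p 0.123 by edgeR), and 0.45 without WT 3 (SE 0.09, adjusted p 0.0113 by edgeR). It also passed in DESeq2 with all libraries (adjusted p 0.0299). Slc25a37, the form that erythroid cells use most, was at 30.3, 29.4 and 30.8 CPM in WT and at 38.7, 34.7, 33.0 and 34.0 CPM in KO, a log2 fold change of 0.22 (SE 0.10, adjusted p 0.275 by edgeR). Here too the groups did not overlap.

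The last group holds the outer membrane member Slc25a46, which takes part in mitochondrial dynamics, and members whose substrate is less settled. Of its 6 tested members 1 rose. Slc25a34 (chromosome 4, 141618824 to 141623821, minus strand) was at 9.38, 5.22 and 5.10 CPM in WT 1 to WT 3 and at 25.0, 16.4, 20.8 and 14.6 CPM in KO 1 to KO 4. The lowest KO library lay above the highest WT library, WT 1. The means were 6.57 ± 2.44 CPM (SD, n = 3) and 19.2 ± 4.68 CPM (SD, n = 4), 2.92 times as high in KO, with a log2 fold change of 1.54 (SE 0.28, 95% interval 0.91 to 2.17, edgeR adjusted p 0.0291). It was 1.39 without WT 3 (edgeR adjusted p 0.00714) and 1.90 without WT 1 (edgeR adjusted p 0.0196). Without WT 2 or any 1 KO library its adjusted p was 0.0737 to 0.0988. Its close relative Slc25a35 averaged 6.86 ± 1.04 CPM (SD) over the WT libraries against 5.6 ± 0.522 CPM over those of KO, with a log2 fold change of -0.29 (SE 0.15).

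Slc25a46 averaged 45.6 ± 12.0 CPM over the WT libraries (SD, n = 3) against 52.8 ± 1.53 CPM over those of KO (SD, n = 4), where WT 3 was again low, at 31.9 CPM. Its log2 fold change was 0.21, and 0.02 without WT 3. Slc25a53 had KO below WT in every library (log2 fold change -0.56, SE 0.24, edgeR adjusted p 0.246), and Zcchc18 overlaps it by 5318 bases on the opposite strand. Slc25a45 and Slc25a47 were higher in WT 3 than in any other library, at 4.69 and 2.35 CPM, and their log2 fold changes turned from -0.28 and -0.22 to 0.30 and 0.41 without it. Slc25a43, Slc25a48 and Slc25a54 had at most 4 counts in a library and were not tested.

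**Figure D4:**
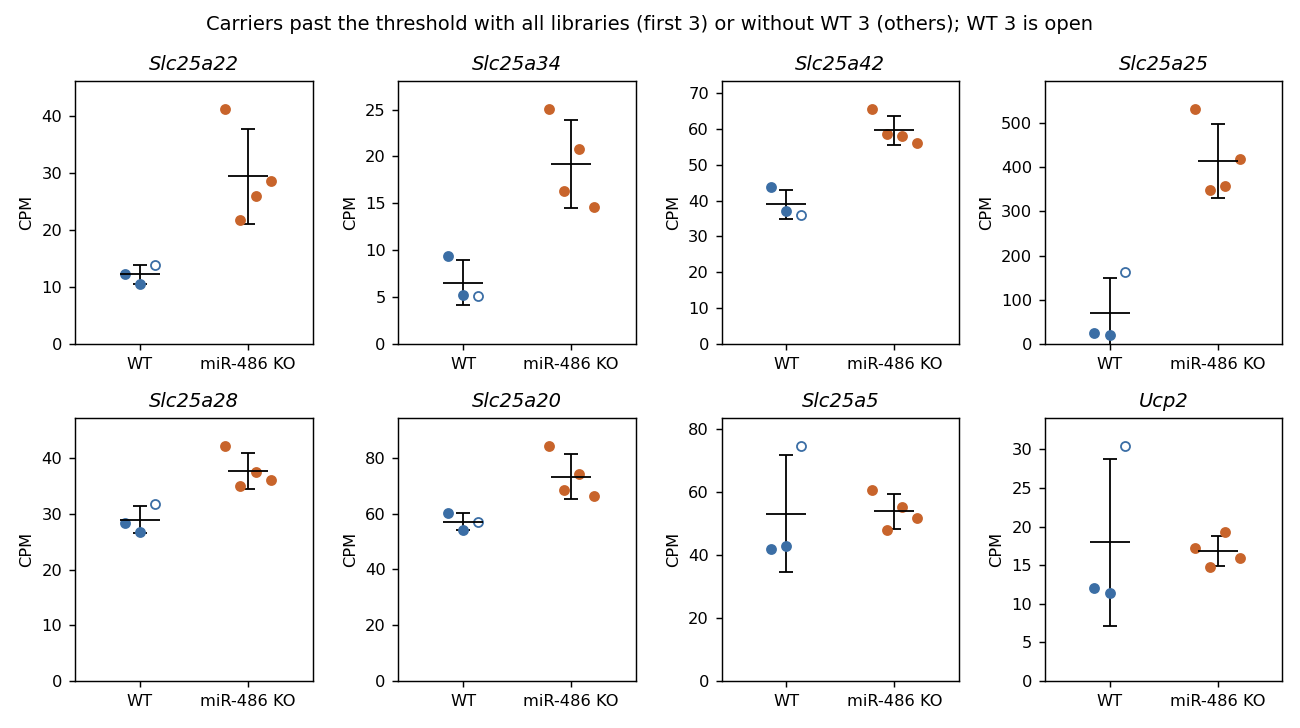
CPM per library (points; WT 3 is the open circle) with mean and SD (line and bars) for the 3 members past the threshold with all libraries (Slc25a22, Slc25a34, Slc25a42) and the 5 added without WT 3. In Slc25a25, Slc25a5 and Ucp2 the open point of WT 3 lies far above WT 1 and WT 2, and the lower SD bar of Slc25a25 in WT is cut at 0.

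Partner genes were read from a list of 45, of which 44 were tested. Most work with the carriers, while Ucp1, Ucp3, Mtch1 and Mtch2 are superfamily members under other symbols. With all libraries 2 rose and 0 fell, where 2.81% of all tested genes passed. Without WT 3 the rises were 8 and the falls 2, where 6.15% of all tested genes rose and 6.55% fell. The median log2 fold change of the list was 0.17, against -0.02 over all tested genes, and without WT 3 it was 0.12 against 0.01. The list was chosen with earlier results of these data known, and the medians are given without a test. Ppargc1a, the coactivator of mitochondrial biogenesis, was at 48.4, 44.5 and 45.4 CPM in WT 1 to WT 3 and at 70.5, 71.6, 77.5 and 75.3 CPM in KO 1 to KO 4. The spread within each group was small, and the log2 fold change was 0.68 (SE 0.10, adjusted p 0.0185 by edgeR). Nnt, the transhydrogenase that makes matrix NADPH, was at 77.0, 63.9 and 41.8 CPM in WT and at 131, 115, 134 and 120 CPM in KO, a log2 fold change of 1.04 (SE 0.20, adjusted p 0.0373 by edgeR). C57BL/6J mice are known to carry a deletion in Nnt, and strain and genotype cannot be told apart for it. Without WT 2 or any 1 KO library neither passed, with edgeR adjusted p values of 0.0636 to 0.121. Over all tested genes 139 passed without WT 2, and 20 to 48 without 1 KO library.

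Ucp3, the uncoupling protein of skeletal muscle and a relative of Ucp2, was at 257, 182 and 292 CPM in WT and at 386, 298, 319 and 425 CPM in KO. The groups did not overlap, and the log2 fold change of 0.55 (SE 0.20, adjusted p 0.182 by edgeR) was 0.70 without WT 3 (edgeR adjusted p 0.0228). Ucp1, the uncoupling protein of brown fat, had 0 counts in every library. The partners of branched chain amino acid breakdown, Bcat2, Bckdha and Bckdhb, had log2 fold changes of 0.41, 0.76 and 0.79. KO lay above WT in each of them, a pattern of 11.0% of all tested genes. None of the 3 passed with all libraries, and each rose in edgeR without WT 3, by 0.45, 0.43 and 0.59 on the log2 scale. Without WT 3 the pyruvate carrier subunit Mpc1 and Nadk2 also rose, and Gpd1 of the glycerol phosphate shuttle and Alas1, the entry enzyme of haem synthesis, fell. The other pyruvate carrier subunit, Mpc2, passed in neither edgeR fit, with log2 fold changes of -0.29 with all libraries and 0.03 without WT 3. None of the 9 genes that insert carriers into the inner membrane and none of the 4 enzymes of the malate-aspartate shuttle passed with or without WT 3 (0 in edgeR). Of all tested genes 2.81% passed with all libraries and 12.7% without WT 3, so a count of 0 in sets this small says little about them.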

How the data were processed

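RNA of TA muscle was sequenced in 3 WT and 4 KO libraries, grouped by sample title. The table deposited by the authors holds raw read counts for each Ensembl gene. According to the submitters' processing notes, HTSeq 0.6.1, STAR 2.5.2b, Trim Galore 0.4.2 and CASAVA 1.8.2 were used, while the methods of the study describe a stranded kit and a stranded Salmon run on the mm10 GENCODE transcriptome. For the HTSeq counts, genome build and strand setting were not given in the sources used here, so reads of overlapping genes (24 of the 48 members overlap another gene) are uncertain. The table had 48800 rows. Its 5 summary rows, among them reads without a unique alignment (24.4% to 34.3%), without a feature (3.25% to 4.34%) and ambiguous reads (4.04% to 4.44%), stayed out of library sizes and tests. GENCODE M21 (GRCm38) held the identifiers of 48349 of the 48795 genes, and its symbols, coordinates and exon lengths were used.

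The fits used edgeR 4.0.16 under R 4.3.3 (TMM factors, filterByExpr at min.count 10, and a quasi-likelihood F test of genotype by glmQLFit and glmQLFTest). p-values were adjusted by Benjamini-Hochberg over all tested genes. The SE was taken as the size of the log2 fold change over the root of F. DESeq2 1.42.0, limma 3.58.1 (voom), other scalings, no filter, a replicate block and leaving out each library were the alternatives, and voom and DESeq2 without WT 3 were chosen after seeing the data. The edgeR, DESeq2 and voom steps were tested on simulated data. No pair of libraries agreed within sampling noise by a chi-square test of counts. Members and gene lists were chosen with earlier results of these data known. Named in full were members past the threshold with all libraries or only without WT 3, the 5 highest per kb and the largest and smallest fold change; of the partners, those past the threshold with all libraries, Nnt and Ucp3. The remaining members are named in their role group, and other partners were named after their values were seen. The values of 1 tested member, which is counted in the totals and not drawn, the erythroid marker list and miR-486 target sites are not reported here.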

Additional observations from a re-analysis of the deposited data

Results flagged for a closer look

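Among the 41 tested members, each was examined for 1 KO library lying far from the other 3. The gap to the nearest library, relative to the group's whole range, was above the 95% critical value of Dixon's test in 3 members, each time with KO 1 the highest. Chance alone marks about 1 in 20 groups. In Slc25a10, the dicarboxylate carrier, KO 1 was at 2.71 CPM with the nearest library at 2.17. In Slc25a33, a pyrimidine nucleotide carrier, KO 1 was at 13.0 CPM with the nearest at 9.85. In Slc25a36, its paralogue, KO 1 was at 48.5 CPM with the nearest at 39.3. None of the 3 passed the threshold with all libraries. WT, with 3 libraries, was not examined in this way.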

How the results depend on the processing

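The count of 3 members changed was 3 with RLE size factors, upper-quartile factors, voom and without mitochondrially encoded genes, 4 with no filter on low counts and 2 when a log2 change of 1 or more was also required. It was 5 with DESeq2 and 8 with DESeq2 without WT 3, and between 0 and 8 when each library was left out. The count of 2 partners changed was 6 with DESeq2 (5 higher and 1 lower in KO) and 10 with DESeq2 without WT 3 (8 higher and 2 lower). Of all genes with an adjusted p, 6.53% and 10.9% passed in these 2 DESeq2 fits. The partner count was 1 when a log2 change of 1 or more was also required, and between 0 and 10 when each library was left out. With a replicate block no gene passed at all, so both counts were 0. The titles number the libraries without calling them pairs, and no pairing was assumed. Same-numbered WT and KO libraries deviated from their group means with correlations of -0.40, 0.35 and -0.17. These values cannot decide whether the numbers are pairs, since WT 3 stood apart from the other WT libraries. KO 1, for instance, was at -0.40 and -0.42 with WT 1 and WT 2 and at 0.47 with WT 3. Scaling moved the median of all genes by at most 0.06 on the log2 scale.

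Members near 0 changed sign. Slc25a5 was at -0.0550 with upper-quartile factors and between -0.12 and 0.35 when each library was left out. Ucp2 was at 0.0762 with the replicate block, 0.0620 with voom, 0.52 with DESeq2 without WT 3 and between -0.32 and 0.52 when each library was left out. Slc25a4 was at 0.0304 with DESeq2 without WT 3 and between -0.29 and 0.0333 when each library was left out. The other 13 of 16 named genes kept their direction in every alternative run. The cause of these moves was not tested. With 3 and 4 libraries the precision is limited, with a median SE of 0.19 on the log2 scale over the members.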
